A study of Mus musculus with 2 samples.

Results

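The insulin genes Ins2 and Ins1 and the islet amyloid polypeptide gene Iapp were described in the pancreas of an adult mouse. The members were the rows whose identifiers carry these 3 symbols in a GENCODE annotation of GRCm38, and all 3 were found among 43346 gene rows in each library. The tissue came from 1 female mouse of the inbred strain C57BL/6J, 10 weeks old, with no treatment or engineered allele named in the labels. Polyadenylated RNA of this 1 sample was sequenced as 2 technical libraries, replicate 2 and replicate 1, and the labels give replicate 2 as a later run. There was 1 group, so no comparison between conditions could be made, and every SD below is the spread between technical libraries. Levels are given in TPM, a unit that divides the reads of a gene by its effective length and sets every library to the same total.

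Insulin is made in the beta cells of the pancreatic islets as a preprohormone. The prohormone derived from it is cut in the secretory granule into the A and B chains and the C peptide. Mice and rats carry a pair of insulin genes. Ins2 keeps the intron layout of the single insulin gene of other mammals, while Ins1 derives from it through a partly processed RNA copied back into the genome and has lost an intron. Iapp encodes amylin, which is stored in the same granules and released with insulin. Human amylin can form islet amyloid, while the mouse peptide, with prolines in the stretch that aggregates in the human peptide, does not.

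Ins2 (ENSMUSG00000000215.6) lies on the minus strand of chromosome 7 of GRCm38, from 142678656 to 142743381 over all its annotated transcripts. Ins1 (ENSMUSG00000035804.4) lies on the plus strand of chromosome 19, from 52264297 to 52265476. Iapp (ENSMUSG00000041681.2) lies on the plus strand of chromosome 6, from 142298423 to 142303961. The insulin genes are near copies in their coding sequence, so the first coding stretch of each is shown to let the distance between them be seen. The Ins2 stretch is the coding part of the second exon of the main Ins2 transcript (ENSMUST00000105932), chr7:142679347-142679533 on the minus strand, and the Ins1 stretch is chr19:52264624-52264810 on the plus strand. Each starts at the ATG and has 187 bases, and capitals mark the 15 positions at which they differ.
Ins2: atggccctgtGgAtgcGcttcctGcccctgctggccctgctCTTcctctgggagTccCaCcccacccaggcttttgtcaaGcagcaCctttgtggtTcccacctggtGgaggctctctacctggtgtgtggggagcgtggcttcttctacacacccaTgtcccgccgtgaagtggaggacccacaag
Ins1: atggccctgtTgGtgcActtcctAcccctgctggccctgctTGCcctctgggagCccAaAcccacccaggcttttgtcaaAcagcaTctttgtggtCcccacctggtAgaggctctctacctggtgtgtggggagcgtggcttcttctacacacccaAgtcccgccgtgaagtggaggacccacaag

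Over the whole coding sequence, 330 bases in Ins2 and 324 in Ins1, 300 aligned bases were identical and 24 were mismatched, which is an identity of 92.6%, with a further 6 bases present in Ins2 alone. The longest stretch shared by their transcripts was 56 bases. Of the 50-base words in Ins2 transcripts, 7 of 1504 also occurred in another gene, and that gene was Ins1. From the side of Ins1, 7 of 1013 words were shared, and Iapp shared 0 of 925 words with any gene. Reads of this length could therefore be assigned to a single insulin gene at nearly all positions. In the deposited tables the posterior SD of the count was 0.03 reads for Ins2 and 0.00 for Ins1 in replicate 2, and 0.00 for each in replicate 1, so little of the estimate rested on reads shared between them.

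The part of Iapp that encodes mature amylin is shown for its prolines. It spans 37 codons at chr6:142303334-142303444 on the plus strand, in the last exon, and capitals mark the 3 proline codons that a search for CCN in frame found.
Iapp: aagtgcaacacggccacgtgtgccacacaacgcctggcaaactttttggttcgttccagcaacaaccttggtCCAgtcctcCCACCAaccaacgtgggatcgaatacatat

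Ins2 was by far the most abundant member. It had 17977 TPM in replicate 2 and 13969 TPM in replicate 1, a mean of 15973 ± 2834 TPM (SD, n = 2 technical libraries). Ins1 had 2617 TPM in replicate 2 and 2157 TPM in replicate 1, a mean of 2387 ± 326 TPM. Iapp had 828 TPM in replicate 2 and 914 TPM in replicate 1, a mean of 871 ± 60.9 TPM. The order Ins2, Ins1, Iapp held in each library, and the range of each gene over the libraries lay apart from those of the others.

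The members stood among the most abundant genes of an organ that is mostly exocrine. By TPM, Ins2 was gene number 10 in replicate 2 and 24 in replicate 1, and Ins1 was number 43 in replicate 2 and 52 in replicate 1. Iapp was number 63 in each. The place of Ins1 rests on the length given to it. At the RefSeq length considered below, with all reads kept, Ins1 would be number 35 in replicate 2 and 45 in replicate 1. Together the members held 2.14% of all TPM in replicate 2 and 1.70% in replicate 1. Since their transcripts are short, their share of the reads was lower, 0.643% in replicate 2 and 0.615% in replicate 1. The reads behind them were 41736 in replicate 2 and 36550 in replicate 1 for Ins2. They were 17015 in replicate 2 and 16078 in replicate 1 for Ins1, and 4240 in replicate 2 and 5387 in replicate 1 for Iapp. At these counts the error of counting is small, as for Ins2, whose share of the reads had an exact Clopper-Pearson 95% interval of 0.422% to 0.430% in replicate 2 and 0.383% to 0.391% in replicate 1. These intervals cover counting error only, because reads made by PCR from 1 molecule are counted apart.

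The genes nearest to each member in level over the 2 libraries, among those with a mean of at least 100 TPM, included many acinar genes. For Ins2 they were the elastase gene Cela1, at a distance of 0.39 on the log2 TPM scale, the lipase gene Pnlip at 0.43 and the trypsinogen gene Prss2 at 0.46. Those named for Ins1 were the lectin gene Reg1 at 0.46 and Tpt1 at 0.74. The distances for Ins1 hold at its length in the files only, since its level would be higher at the shorter lengths considered below. For Iapp they were Gp2, a zymogen granule membrane protein, at 0.16, the lipase-related gene Pnliprp2 at 0.34 and the ribosomal protein gene Rpl13a at 0.61. The likeness rests on 2 technical libraries and describes level alone.

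**Figure D1:**
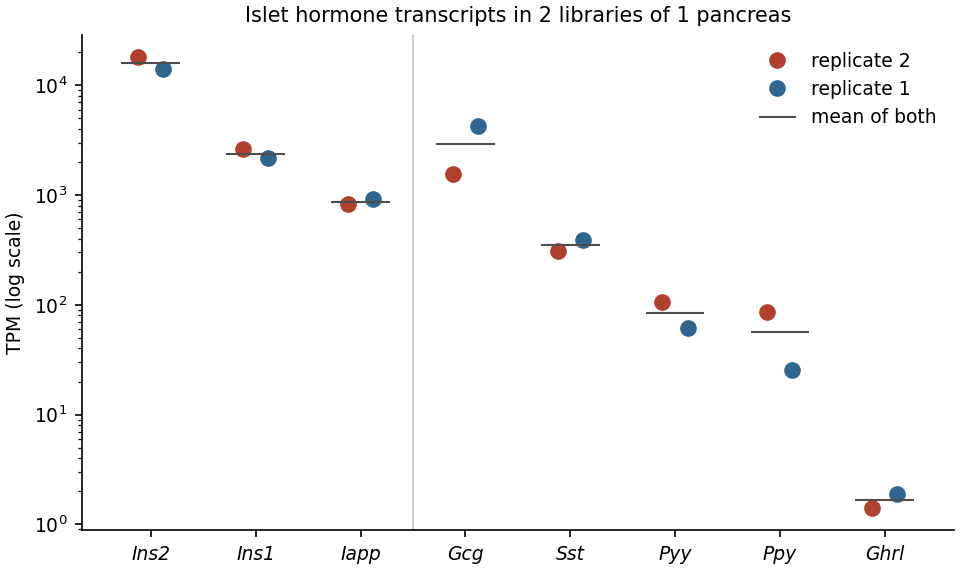
Levels of the insulin genes, Iapp and 5 other islet hormone genes in TPM on a log axis, with replicate 2 left of replicate 1 for each gene and a line at their mean. Ins2 lies above every other hormone gene in each library. With Ins1 at its assigned length, Gcg lies below Ins1 in replicate 2 and above it in replicate 1.

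The other hormones of the islet set the scale for these levels. Gcg, the glucagon gene of alpha cells, had 1566 TPM in replicate 2 and 4235 TPM in replicate 1. By these values its order relative to Ins1 turned round between the libraries. That turn rests on the length given to Ins1. At the shorter lengths considered below, Ins1 would be at 4190 TPM or 6267 TPM in replicate 1, and the latter is above Gcg. Sst, the somatostatin gene of delta cells, had 308 TPM in replicate 2 and 392 TPM in replicate 1. Pyy, the peptide YY gene, had 106 TPM in replicate 2 and 61.6 TPM in replicate 1, and Ppy, the pancreatic polypeptide gene, had 86.6 TPM in replicate 2 and 25.7 TPM in replicate 1. Ghrl, the ghrelin gene, was near the limit of detection, with 1.42 TPM in replicate 2 and 1.88 TPM in replicate 1. All 5 lay below Ins2 in each library, and only Gcg overlapped the range of Ins1 at its assigned length. Ins2, Ins1 and Iapp made up 91.2% of the TPM of these 8 hormone genes in replicate 2 and 78.3% in replicate 1. The insulin genes alone made up 87.7% in replicate 2 and 74.1% in replicate 1, so the share attributed to them depended on the library. Gcg was higher in replicate 1, and the insulin sum was lower there, at 16126 TPM against 20594 TPM in replicate 2. Of the beta cell markers used as a check (Ins1, Ins2, Iapp, Mafa, Slc2a2, G6pc2, Ucn3 and Nkx6-1), only Mafa missed 1 TPM in a library, replicate 1. The libraries are technical replicates of 1 sample, so these differences between them do not describe its cells, and their cause was not tested. Within a library of bulk tissue, a level does not tell the number of cells of a type from the RNA per cell.

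The ratio of Ins2 to Ins1 was compared within each library, where the scaling of the library cancels. Per TPM it was 6.87 in replicate 2 (counting interval 6.75 to 6.99) and 6.48 in replicate 1 (6.36 to 6.60), a mean of 6.67 ± 0.277 (SD, n = 2). Ins2 therefore held 87.3% of insulin TPM in replicate 2 and 86.6% in replicate 1. Per read the ratio was much smaller, 2.45 in replicate 2 (2.409 to 2.497) and 2.27 in replicate 1 (2.23 to 2.32). The distance between these values is the length that the files assign to each gene. Ins1 had an effective length, the number of positions at which a fragment can start, of 863 bases in replicate 2 and 853 bases in replicate 1. That of Ins2 was 308 bases in replicate 2 and 300 bases in replicate 1.

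The coding parts of the insulin transcripts are of nearly the same length, and the difference lies in the untranslated regions (UTRs). In GENCODE M21 the main Ins2 transcript has 70 bases of 5′ UTR, 330 coding bases and 55 bases of 3′ UTR. The single Ins1 transcript (ENSMUST00000039652) has 209 bases of 5′ UTR, 324 coding bases and 529 bases of 3′ UTR. Its length in the files is 1016 bases, against 1062 bases in M21. RefSeq ends Ins1 at position 52265015, which is 461 bases before the M21 end, and leaves 601 bases within the GENCODE exons. If all Ins1 reads fell within that length, Ins1 would stand at 5030 TPM in replicate 2 and 4190 TPM in replicate 1, and the ratio of Ins2 to Ins1 would be 3.57 in replicate 2 and 3.33 in replicate 1. Reads in the bases left out would lower these levels and raise the ratio, so they are limits. With all reads kept and the 455 bases of the main Ins2 transcript the ratio would be 2.40 in replicate 2 and 2.22 in replicate 1. Ins2 exceeded Ins1 under each of these lengths, and the size of the excess depended on the length given to Ins1. The RefSeq length keeps the annotated start and its 209 bases of 5′ UTR. Which start and end the Ins1 RNA of this pancreas uses was not tested, since the data used here hold no coverage along the gene.

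**Figure D2:**
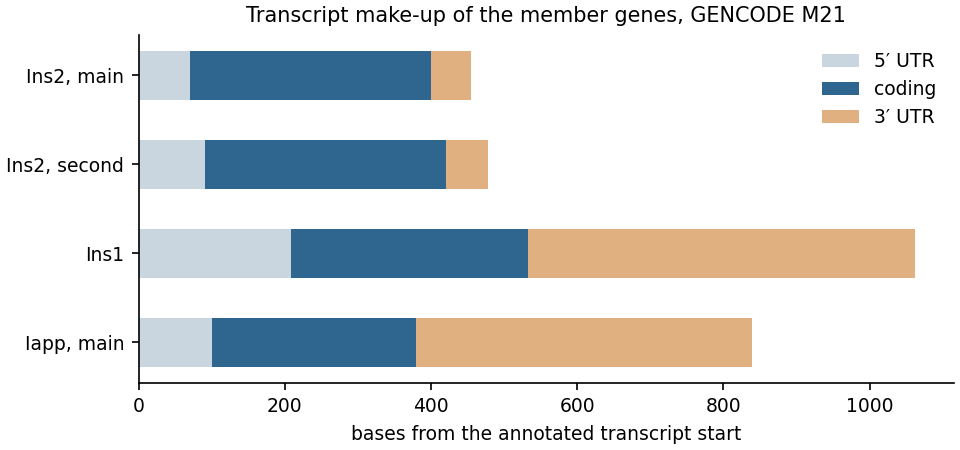
Length in bases of the 5′ UTR, coding sequence and 3′ UTR of 4 member transcripts in GENCODE M21, each drawn from its annotated start. The coding parts are alike in length, and those of Ins1 and Iapp carry 3′ UTRs of 529 and 460 bases, against 55 bases in the main Ins2 transcript.

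**Figure D3:**
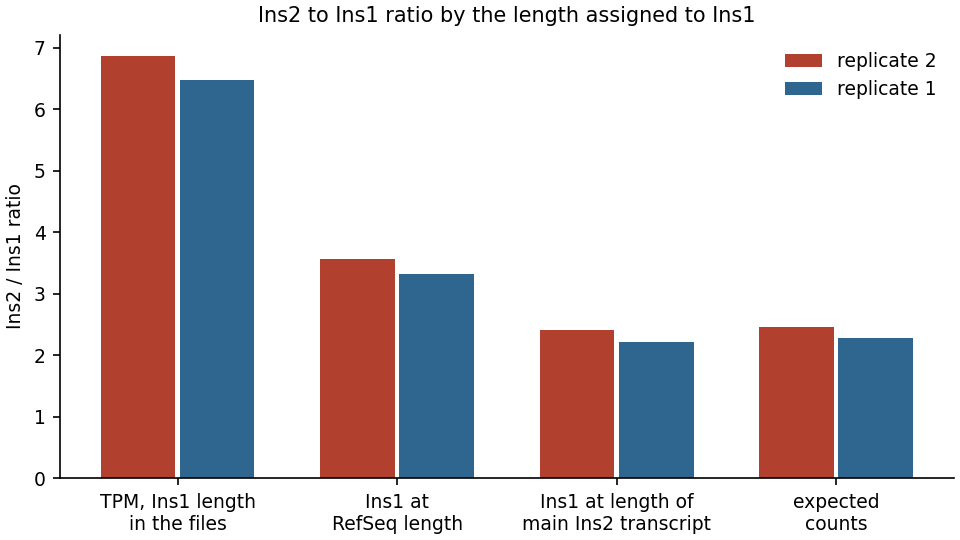
Ratio of Ins2 to Ins1 in replicate 2 (left bar) and replicate 1 (right bar), by TPM with Ins1 at its length in the files, at its RefSeq length and at the length of the main Ins2 transcript, and by expected counts, with all Ins1 reads kept at each length. The mean ratio is 6.67 with the length in the files, 3.45 with the RefSeq length, 2.31 with the length of the main Ins2 transcript and 2.36 by counts.

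The region before each start was searched for letters known from the rodent insulin promoters, namely GCCATCTG, the E box bound by Neurod1 with its partner, its core CATCTG, which lies within the longer motif, and TAAT, the core of sites for homeodomain factors such as Pdx1. Both strands were searched from 250 bases before to 50 bases after the RefSeq start. Ins1 and Iapp had a promoter in this table. The 250 bases before the start are shown for Ins1, chr19:52264047-52264296, and for Iapp, chr6:142298175-142298424, both on the plus strand of GRCm38.p6 from RefSeq, with CATCTG in capitals.
Ins1: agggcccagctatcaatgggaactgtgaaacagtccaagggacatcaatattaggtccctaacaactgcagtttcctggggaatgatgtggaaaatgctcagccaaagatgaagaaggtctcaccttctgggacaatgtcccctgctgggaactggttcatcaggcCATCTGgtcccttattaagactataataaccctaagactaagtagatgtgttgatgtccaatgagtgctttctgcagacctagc
Iapp: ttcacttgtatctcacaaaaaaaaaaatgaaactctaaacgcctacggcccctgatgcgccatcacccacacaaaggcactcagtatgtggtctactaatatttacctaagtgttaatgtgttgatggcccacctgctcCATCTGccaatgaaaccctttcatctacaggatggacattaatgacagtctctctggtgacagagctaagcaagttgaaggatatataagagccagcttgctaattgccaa

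GCCATCTG occurred in the Ins1 window at positions -86 to -79 from the start and again at positions 41 to 48, inside the annotated first exon. It was present in 1.32% of the 32851 promoter windows of the table. Iapp held the core CATCTG at -111 to -106 and not the longer motif, and 17.2% of all windows held the core. TAAT occurred at 3 places in the Ins1 window and at 5 in the Iapp window, with 58.0% of all windows holding at least 1. These matches describe the letters of the window alone. Positions count from the annotated start, and where transcription of Ins1 starts in this pancreas was not tested.

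Ins2 had 8 transcripts in the files, and a pair of them held nearly all of its TPM. The main transcript (ENSMUST00000105932) had 13703 TPM in replicate 2 and 10204 TPM in replicate 1, which was 76.2% of Ins2 in replicate 2 and 73.0% in replicate 1, a mean of 74.6% ± 2.25 (SD, n = 2). The second (ENSMUST00000000220) had 3906 TPM in replicate 2 and 3449 TPM in replicate 1, or 21.7% of Ins2 in replicate 2 and 24.7% in replicate 1. These transcripts encode the same 330 coding bases. The second starts 9 bases earlier, has 12 more bases at the 5′ side of its second exon and ends 2 bases later, so the files split them on reads over a few bases near the start.

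The other 6 Ins2 transcripts each held under 1% of its TPM. ENSMUST00000105933, which keeps the first intron of 114 bases, had 124 TPM in replicate 2 and 132 TPM in replicate 1. ENSMUST00000105930, whose last exon is 151 bases longer, had 133 TPM in replicate 2 and 23.1 TPM in replicate 1. Its estimated counts were 430 ± 22.1 in replicate 2 and 84.8 ± 12.1 in replicate 1, where the error is the posterior SD given in the deposited tables. ENSMUST00000105931 had 27.95 TPM in replicate 2 and 22.6 TPM in replicate 1. Its counts were 67.2 ± 15.3 in replicate 2 and 61.0 ± 25.6 in replicate 1 (posterior SD). The shortest, ENSMUST00000125933 and ENSMUST00000162317, had 43.4 TPM and 1.07 TPM in replicate 2, against 1.36 TPM and 0.00 TPM in replicate 1. The minor transcripts thus did not behave alike. ENSMUST00000105933 and ENSMUST00000105931 were at similar TPM in the technical libraries, the latter with a wide posterior SD. The one with the longer last exon and ENSMUST00000125933 were higher in replicate 2.

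The long upstream transcript (ENSMUST00000105934) has the widest span of those in the files, and its place was checked against the annotation. Its first exon of 76 bases begins 19793 bases before the start of the main transcript and is joined to the body of Ins2. Ins2 is on the minus strand, and this side points away from Igf2, whose 5′ end lies 11844 bases beyond the 3′ end of the main Ins2 transcript. It is therefore an upstream start, and no Ins2 transcript in the files reached toward Igf2. It had 38.3 TPM in replicate 2 and 138 TPM in replicate 1, or 0.21% of Ins2 in replicate 2 and 0.99% in replicate 1. Its counts were 94.3 ± 16.2 in replicate 2 and 382 ± 28.4 in replicate 1 (posterior SD). Its log2 ratio of replicate 2 over replicate 1, scaled as for the genes below, was -1.53 with a counting interval of -1.88 to -1.21. The main transcript had 0.74 and the second 0.49. The interval takes the estimated counts as reads and leaves out the error of dividing reads among the Ins2 transcripts. Ins1 had 1 transcript in the files, and the main Iapp transcript held 98.9% of Iapp TPM in replicate 2 and 99.7% in replicate 1, with the rest on a noncoding transcript.

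**Figure D4:**
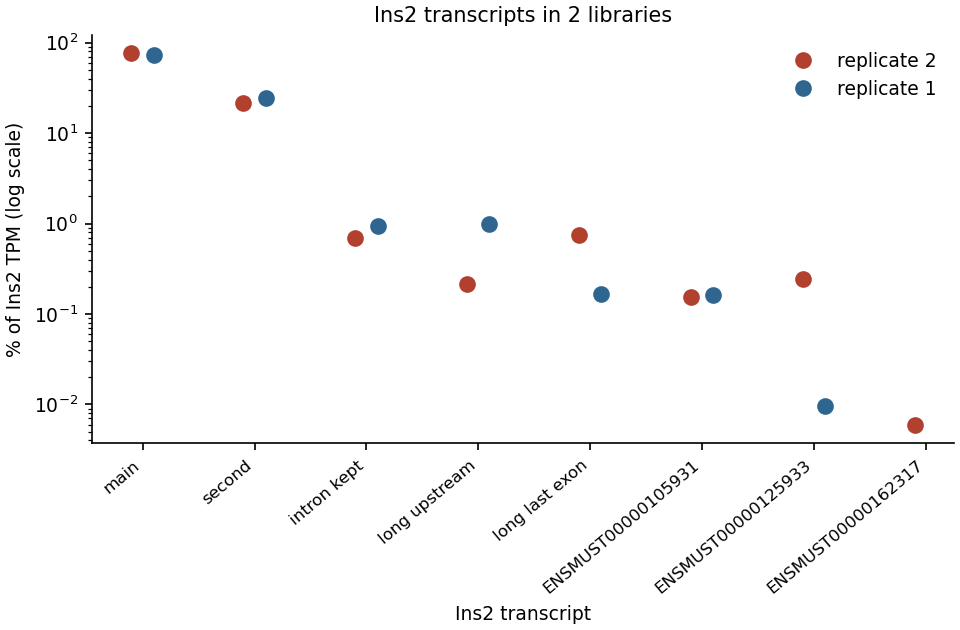
Share of Ins2 TPM, in percent on a log axis, on each of the 8 Ins2 transcripts in the files, with replicate 2 left of replicate 1. The main and second transcripts hold nearly all of it, 3 minor transcripts (long upstream, long last exon and ENSMUST00000125933) stand well apart between the libraries, and ENSMUST00000162317 is drawn in replicate 2 only because it is listed at 0 in replicate 1.

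Iapp was set against insulin within each library. Its TPM was 4.02% of the insulin sum in replicate 2 (counting interval 3.90% to 4.15%) and 5.67% in replicate 1 (5.51% to 5.83%), a mean of 4.84% ± 1.17 (SD, n = 2). Put the other way, insulin TPM was 24.9 times that of Iapp in replicate 2 and 17.6 times in replicate 1. The intervals did not overlap, so the technical libraries differed in this ratio by more than counting error. Ins1 alone was 3.16 times Iapp in replicate 2 and 2.36 times in replicate 1. These values rest on the length given to Ins1. At its RefSeq length, with all reads kept, Ins1 would be at 5030 TPM in replicate 2 and 4190 TPM in replicate 1. That would lower the Iapp percentage and raise the ratio of Ins1 to Iapp.

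The difference of each member between the libraries was taken as a log2 ratio of replicate 2 over replicate 1, from counts scaled with TMM factors. With 1 library on each side it has no test, and a gene was counted as past the fold at 2-fold or more. Of the 12452 genes averaging 10 counts or more over the libraries, 9.33% were higher by this rule, 5.20% were lower and 14.5% were past it in either direction. None of the 3 members was past it. Ins2 had a log2 ratio of 0.67 (counting interval 0.65 to 0.69), Ins1 0.56 (0.53 to 0.60) and Iapp 0.14 (0.08 to 0.20). The ratio of Ins2 lay above those of 83.3% of the genes, that of Ins1 above 79.5% and that of Iapp above 59.0%. Over all genes the SD of the ratio was 0.797 around a median of -0.01. The member ratios were thus positive and within 1 SD of the median gene. Replicate 2 was also the later run, so the library and the run cannot be told apart.

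The direction for Iapp depended on the scaling. The deposited expected counts came to 9797569 over all genes in replicate 2, against 9441559 in replicate 1. Mitochondrial genes and their nuclear copies, with Gm42418, Gm26917 and Lars2, took 52.6% of the counts in replicate 2 and 38.6% in replicate 1. Under plain library totals every log2 ratio moves by -0.54, and those of the members become 0.14 for Ins2, 0.03 for Ins1 and -0.40 for Iapp. Differences between members do not depend on scaling. The log2 ratio of Ins2 exceeded that of Iapp by 0.54 (0.48 to 0.60), that of Ins1 exceeded that of Iapp by 0.43 (0.36 to 0.49), and Ins2 and Ins1 differed by 0.11 (0.07 to 0.15). The insulin genes therefore lay closer to each other than to Iapp, and these intervals hold counting error only.

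**Figure D5:**
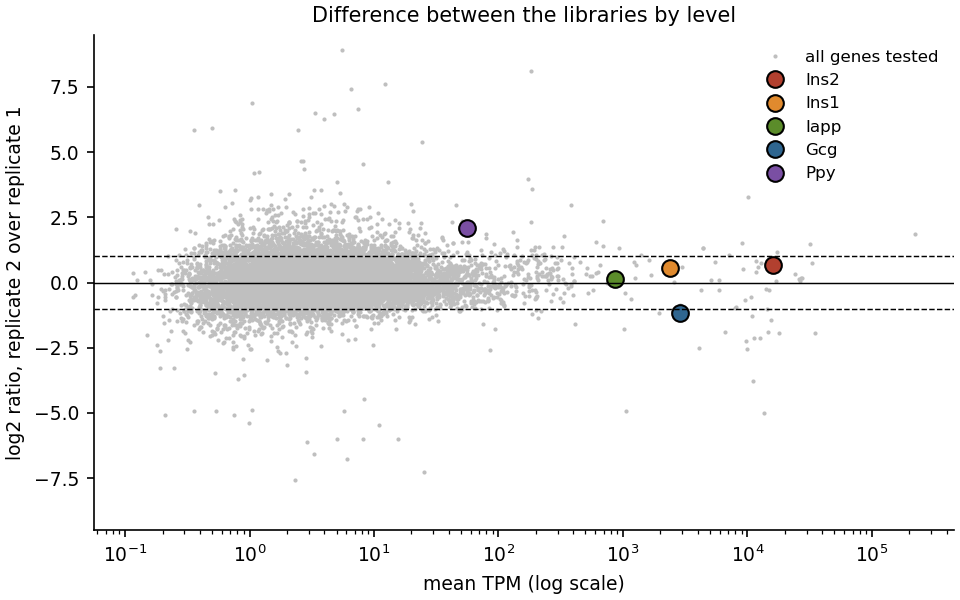
Log2 ratio of replicate 2 over replicate 1 against mean TPM (log axis) for 12452 genes (grey), with Ins2, Ins1, Iapp, Gcg and Ppy marked and dashed lines at 2-fold. The 3 members lie between 0 and 1, while Ppy at 2.07 and Gcg at -1.19 lie outside the dashed lines.

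Of the 4 other islet hormones with enough counts, Ppy was higher past 2-fold in replicate 2, with a log2 ratio of 2.07 (1.70 to 2.48), and Gcg was lower, with -1.19 (-1.22 to -1.15). The median of the 4 was 0.45. Counts past 2-fold here stand against 9.33% of all tested genes higher and 5.20% lower. Gcg had 10458 counts in replicate 2 and 33243 in replicate 1, and the cause of its difference was not tested. In size, the log2 ratio of Gcg exceeded that of every member. Markers of the acinar cell, the most abundant cell of the organ, were all present, with 10 of 10 at 1 TPM or more in each library. Their TPM summed to 216686 in replicate 2 and 167660 in replicate 1, and 3 of 10 were higher past 2-fold and 0 lower, at a median of 0.55, against 0.56 for Ins1. Under library totals 0 of 10 were past it, where 3.12% of all tested genes were higher and 22.0% lower past the fold. Their part in the insulin ratios was not tested. The cell types that make up little of the organ were low in each library. Duct markers summed to 181 TPM in replicate 2 and 198 TPM in replicate 1, and 1 of 8 tested was higher and 0 lower, at a median of 0.10. Adipocyte markers summed to 174 TPM in replicate 2 and 282 TPM in replicate 1, where 0 of 5 were higher and 1 lower, at a median of -0.02. Fabp4 held most of the adipocyte sum, with 146 TPM in replicate 2 and 254 TPM in replicate 1. By TPM, Adipoq was also lower in replicate 2, while Plin1 and Cidec were higher there. The gene past the fold was Lep, on 6 counts in replicate 2 and 19 in replicate 1, with an interval of -2.79 to 0.20 that includes 0. Markers of lymph node and gut, tissues that lie next to the pancreas, had lower sums still. Lymphoid markers summed to 35.1 TPM in replicate 2 and 41.6 TPM in replicate 1, where 2 of 3 tested were lower. These were Cd79a, at -1.38 (-2.68 to -0.345), and Ms4a1, at -1.03 with an interval of -2.72 to 0.29 that includes 0. Cd3e and Cr2 stood at 0.00 TPM in replicate 2 and had too few counts to be tested. The lymph node chemokine gene Ccl21a held most of the lymphoid sum, with 33.8 TPM in replicate 2 and 37.2 TPM in replicate 1. Its log2 ratio was 0.15 (-0.14 to 0.43). Intestinal markers summed to 3.42 TPM in replicate 2 and 4.30 TPM in replicate 1, and 1 of 2 tested was lower.

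Genes that drive insulin gene transcription were present at low levels. Of 13, 10 reached 1 TPM in each library. Pax6, expressed in all islet cell types, had 6.43 TPM in replicate 2 and 19.9 TPM in replicate 1. Isl1, another factor of all islet cell types, had 3.31 TPM in replicate 2 and 11.9 TPM in replicate 1. Foxa2, a factor of foregut endoderm, had 6.44 TPM in replicate 2 and 7.80 TPM in replicate 1. Nkx2-2, an endocrine lineage factor, had 4.09 TPM in replicate 2 and 4.36 TPM in replicate 1. Of 12 tested, Nkx6-1, a beta cell factor, was higher past 2-fold, with a log2 ratio of 1.04 (0.36 to 1.76). Pax6 at -1.06 (-1.45 to -0.70) and Isl1 at -1.07 (-1.55 to -0.63) were lower, and the other 9 were not past the fold. The median was -0.44, against -0.01 over all genes. Mafa, which binds the insulin promoters of mature beta cells, had 18 counts in replicate 2 and 0 in replicate 1 and was under the count minimum. Under library totals 0 of the 12 were higher and 5 were lower. With TMM factors, the list counts here and below stand against 9.33% of all tested genes higher and 5.20% lower. Under library totals they stand against 3.12% higher and 22.0% lower.

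Genes for cutting and packing the prohormones were more abundant. Chga, the granule protein chromogranin A, had 237 TPM in replicate 2 and 242 TPM in replicate 1. The granin Scg2 had 65.9 TPM in replicate 2 and 118 TPM in replicate 1. Cpe, the carboxypeptidase that trims the cut ends, had 63.3 TPM in replicate 2 and 68.5 TPM in replicate 1. Ero1lb, which helps form disulphide bonds in proinsulin, had 55.9 TPM in replicate 2 and 54.6 TPM in replicate 1. The level of Ins2 was 66.8 times that of Chga by mean TPM. Of 14 tested, 1 was higher past 2-fold and 0 were lower, against 9.33% and 5.20% of all tested genes, with a median of 0.14. That gene was Pcsk1n, which encodes proSAAS, an inhibitor of the convertase Pcsk1, with 170 counts in replicate 2 and 0 in replicate 1. Under library totals 1 was higher and 3 were lower.

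Among 14 genes for glucose sensing and insulin secretion, the islet glucose-6-phosphatase gene G6pc2 was the most abundant, with 39.3 TPM in replicate 2 and 43.4 TPM in replicate 1. Ucn3, a peptide of mature beta cells, had 14.2 TPM in replicate 2 and 37.2 TPM in replicate 1. Abcc8, a subunit of the ATP-sensitive potassium channel, had 12.2 TPM in replicate 2 and 8.51 TPM in replicate 1. The glucose transporter gene Slc2a2 had 8.36 TPM in replicate 2 and 8.37 TPM in replicate 1. Of 13 tested, 2 were higher past 2-fold and 1 was lower, against 9.33% and 5.20% of all tested genes, with a median of 0.14. The higher genes were the GLP-1 receptor gene Glp1r, at 1.63 (0.766 to 2.601), and the channel subunit gene Kcnj11, at 1.25 on 14 counts in replicate 2 and 8 in replicate 1, with an interval of -0.06 to 2.75 that includes 0. Ucn3 was lower, at -1.10 (-1.39 to -0.83), although it is a beta cell gene like the insulin genes, which had positive ratios. Under library totals 1 was higher and 2 were lower.

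The genes that receive or break down the hormones were low, as were the neighbours of Ins2. Of 9 receptor and breakdown genes, Ramp2 was the most abundant, with 16.4 TPM in replicate 2 and 37.2 TPM in replicate 1. Ramp3 had 5.11 TPM in replicate 2 and 3.32 TPM in replicate 1, and the Ramp proteins turn the calcitonin receptor into an amylin receptor. The receptor itself, Calcr, had 0 counts in each library, where a count of 0 says only that it was not detected at this depth. The insulin receptor gene Insr had 3.04 TPM in replicate 2 and 5.27 TPM in replicate 1, and the insulin-degrading enzyme gene Ide had 3.20 TPM in replicate 2 and 4.77 TPM in replicate 1. Of 8 tested, Ramp1 was higher past 2-fold, at 1.29 (0.73 to 1.88), and 0 were lower, with a median of -0.04. Over all tested genes 9.33% were higher and 5.20% lower. Under library totals 0 were higher and 2 were lower.

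Ins2 sits in an imprinted region between Th, the tyrosine hydroxylase gene, and Igf2, a fetal growth factor gene. Igf2 had 5.63 TPM in replicate 2 and 7.26 TPM in replicate 1, H19 had 1.66 TPM in replicate 2 and 2.81 TPM in replicate 1, and Th had 1.26 TPM in replicate 2 and 0.82 TPM in replicate 1. Ascl2 and Igf2os had at most 0.08 TPM. The mean TPM of Ins2 was 2478 times that of Igf2, so the abundance of Ins2 was not shared by its neighbours. Of the 3 neighbours tested, 0 were past 2-fold in either direction, against 14.5% of all tested genes, with a median of -0.52. Under library totals 2 were lower, against 22.0% of all tested genes.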

How the data were processed

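Polyadenylated RNA of 1 mouse pancreas sample was analysed in 2 technical libraries. Per the deposited README text, build mm10 and the annotation GENCODE M4 were used. The aligner and quantifier were not given in the sources used here. For each gene and transcript the authors deposited an expected count, a TPM and an FPKM, per the file headers. The authors also deposited a posterior mean count with its standard deviation, and a posterior mean TPM, a signal that per the file headers is the posterior estimate scaled by effective length. The deposited percent of each transcript in its gene was recomputed from TPM.

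GENCODE M21 on GRCm38 gave symbols and positions, and 42462 of 43346 gene rows matched. Expected counts were rounded, and edgeR 4.0.16 (R 4.3.3) gave TMM factors. A single library per side leaves the quasi-likelihood model no residual degrees of freedom, so no p-value is given. Ratios carry 0.5 added counts and an exact Clopper-Pearson interval at 95%, for genes averaging 10 counts or more. The ratio script was tested on simulated data. Alternative scalings were library totals, DESeq2 1.42.0 size factors, upper quartile factors, and totals without 51 genes, the mitochondrial genes, their nuclear copies (found by BLAST+ 2.17.0 as hits of 95% identity covering 90% of the copy), Gm42418, Gm26917 and Lars2. Effective lengths of Ins1 at other lengths were read from the files at that length.

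The members, the gene lists (other islet hormones, insulin gene transcription, prohormone processing, glucose sensing, receptors and breakdown, neighbours of Ins2, and acinar, duct, adipocyte, lymphoid and intestinal markers) and the tests were chosen with earlier results of these data known. Genes named were the members, the 4 most abundant genes of each pathway list and every pathway list gene past 2-fold, and the 3 genes nearest each member in level, of which 1 is not reported here. Other hormone, neighbour and marker genes, with Mafa and Calcr, were named after their values were seen. Scripts ran in Python 3.11.15 with pandas 2.3.3, scipy 1.17.1, numpy 2.4.6, Biopython 1.88 and matplotlib 3.10.9.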

Additional observations from a re-analysis of the deposited data

How the results depend on the processing

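Ins2 remained above Ins1 under every unit and length tried, while the size of the ratio moved from 6.67 to 2.36 by expected counts, to 3.45 with Ins1 at its RefSeq length and to 2.31 at the length of the main Ins2 transcript. The last pair of lengths keeps all Ins1 reads, so these ratios are lower limits at those lengths, and was chosen after seeing the data. It was 6.48 to 6.87 with a library left out, and 6.63 without the long upstream transcript. Iapp was 4.84% of insulin by TPM, 8.73% by expected counts and 4.02% to 5.67% with a library left out. The share of the main Ins2 transcript was 73.0% to 76.2% with a library left out. The log2 ratio of Iapp, 0.14 with TMM, was -0.40 under library totals, -0.025 under totals without Lars2, Gm26917, Gm42418 and the mitochondrial genes with their copies, and -0.14 from TPM with a pseudocount of 1. Those of Ins2 and Ins1 stayed positive under every scaling, down to 0.14 and 0.03. The value of 0.03 for Ins1, under library totals, was within counting error, so its sign there is not settled. Genes past 2-fold numbered 1809 with 64.2% of them higher, against 3130 under library totals with 12.4% higher, 5505 with no count filter, 649 at a mean of 50 counts and 329 at 100. With a pseudocount of 5 counts they numbered 1329, with 75.3% higher. The cause of these shifts was not tested, except that a count filter tests fewer genes and a gene length divides its reads. The levels without the mitochondrial and related genes in the total were 29136 TPM for Ins2, 4357 TPM for Ins1 and 1595 TPM for Iapp. No paired analysis was possible because there is 1 group. The limits are those of 1 animal and 2 technical libraries, and the depth does not allow a statement on genes at 0 counts.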
